A study of Mus musculus and Sus scrofa with 30 samples.

Results

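The genes described here are the 3 nuclear receptors of the NR4A family (Nr4a1, Nr4a2 and Nr4a3) and 7 further genes known as early targets of cyclic AMP signalling: Crem, Fos, Fosb, Junb, Egr1, Sik1 and Dusp1. They were taken by name, ignoring case, from the deposited tables of 2 cell systems. All 10 were found among 24843 genes of the mouse table and 9 among 34307 genes of the pig table; pig CREM was not analysed here. Every gene found passed the minimum mean of 10 normalized counts, so 10 of 15723 tested mouse genes and 9 of 14819 tested pig genes were members. The genes were selected on earlier results of these data, in which pig NR4A1 was lower with each of the compounds dicoumarol and magnolol and departed from additivity in their combination. The members' differences from vehicle and from additivity in the pig cells are therefore given as descriptions, with no p-value of their own. Counts of members past the threshold in these comparisons stand beside the share of all genes, and the closing section gives how they moved with the processing. Nothing is read from them. No mouse value of a member is known to have borne on the choice.

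NR4A receptors are transcription factors that need no known hormone to act and whose level is set mainly by how fast their genes are transcribed. When a hormone receptor activates adenylyl cyclase, cyclic AMP releases the catalytic subunits of protein kinase A, which phosphorylate CREB, a factor that binds the cyclic AMP response element (CRE, TGACGTCA or its core CGTCA) in promoters. Genes of this class are switched on within minutes to hours without new protein synthesis, and many of the same genes also answer growth factors and serum through MAP kinases. The induction mix for fat cells contains isobutylmethylxanthine (IBMX), which blocks the phosphodiesterases that break down cyclic AMP, and transient induction of NR4A genes, Fos and Crem by such a mix is part of the known early course of 3T3-L1 differentiation.

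Bulk poly(A) RNA-seq was taken on day 5 of induction from 2 systems with 5 groups of 3 libraries each, 30 libraries in all. 3T3-L1 is an established line of mouse embryonic fibroblasts that can form adipocytes, induced here in 10% serum with IBMX (37.5 µM), insulin (0.75 µg/mL) and dexamethasone (75 nM). DFAT cells are fat cells from porcine subcutaneous tissue that have returned to a fibroblast-like state, induced in 2% serum with IBMX (12.5 µM), biotin (20 µM), pantothenate (10 µM) and dexamethasone (0.5 µM), and no insulin is listed. In both systems the groups were DMSO vehicle, dicoumarol (an anticoagulant built of coumarin units), magnolol (a plant lignan from magnolia), the 2 together, called the combination, and rosiglitazone (which activates PPARγ, the main receptor of fat cell formation). All groups of a system, vehicle included, were given that system's mix. The sources used here do not give the compound doses, the number of pig donors or whether replicates were separate cultures. The p-values then measure only the spread between these libraries, which may be technical.

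The estimated depth was 22.8 to 30.7 M reads for a library of 3T3-L1 and 44.8 to 70.5 M for one of DFAT, and mitochondrial genes took 5.22% to 14.3% and 6.85% to 15.1% of the counts. Levels of fibroblast marker genes were high in both systems, as the labels imply. Endothelial markers had sums of 6.29 to 29.1 normalized counts in the mouse cells and of 149 to 239 in the pig cells, where PECAM1 alone reached 149 to 236. Epithelial markers summed to at most 7.95 in 3T3-L1 and 16.7 in DFAT. Skeletal muscle markers summed to 0 in 3T3-L1, where none of the 5 was found, and to at most 18.6 in DFAT. Smooth muscle markers, which fibroblasts can also express, had sums of 1421 to 5654 in the mouse cells and of 103941 to 202730 in the pig cells, and immune markers of 123 to 269 and 669 to 1017. The summed level of 10 adipocyte markers moved with the groups. In 3T3-L1 it was 43973 to 61791 in vehicle, 61361 to 95625 with dicoumarol, 86300.3 to 130793 with magnolol, 113859 to 178285 with both and 316048 to 560231 with rosiglitazone. In DFAT the same sums were 16739 to 19651, 19993 to 21231, 28615 to 35326, 45392 to 48885 and 62976 to 65975. Fibroblast markers moved with the groups too, in different orders. In 3T3-L1 the sum of 8 was 352428 to 385541 in vehicle, 305775 to 362162 with dicoumarol, 297974 to 361920.0 with magnolol, 274613 to 325567 with both and 206628 to 275944 with rosiglitazone. In DFAT the sum of the 7 found was 2.41 to 2.58 M in vehicle and higher with dicoumarol (3.27 to 3.37 M), magnolol (3.70 to 4.26 M) and both (3.70 to 4.36 M), and it was lower with rosiglitazone (1.87 to 2.05 M). Vehicle thus lay between the compound treatments and rosiglitazone for this sum, as it does for NR4A1 and SIK1 below, but in the opposite direction. Smooth muscle marker sums in DFAT were 103941 to 124550 in vehicle, 152931 to 165246 with magnolol and 170443 to 189140 with both. With dicoumarol they were 117793 to 134610, overlapping vehicle, and with rosiglitazone 131142 to 202730. The part of these shifts in any difference below was not tested, and in bulk RNA fewer cells of a type and less RNA per cell cannot be told apart.

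Promoter sequences of the mouse members are shown because the CRE is what links these genes to cyclic AMP. RefSeq promoters of build GRCm38.p6 were used for 7 of the 10 members, and the 250 bases before each start were searched on both strands. Crem and Egr1 were left out of this search and no promoter of Sik1 was matched. The counts below do not cover these genes, and the share of all promoters was not restricted in this way. The CRE core CGTCA was present in 7 of 7, against 17.8% of 32851 promoters. The members were listed as known targets of cyclic AMP, so a high share may follow from that choice and tests nothing. For Junb the bases just after the start were not found near the start of an annotated transcript of the gene. Nr4a1, Nr4a2 and Nr4a3 held 4 cores each, a number reached by 0.137% of all promoters. Dusp1 held 3 cores, 2 of them within 1 full CRE, TGACGTCA, which was found in 1.55% of all promoters, Fos held 2, and Fosb and Junb held 1 each. The sequences below run 5′ to 3′ on the gene's strand from 250 bases before the start, with every CRE core in capitals; a core on the opposite strand reads TGACG. Nr4a1 lies at chr15:101266596-101266845 (plus strand), Nr4a2 at chr2:57124004-57124253 (minus strand), Nr4a3 at chr4:48045055-48045152 (plus strand, 98 bases, with 3 of its 4 cores), Fos at chr12:85473640-85473889 (plus strand) and Dusp1 at chr17:26508520-26508722 (minus strand, 203 bases). Those of Nr4a1, Nr4a2 and Fos end at the base before the start. Those of Nr4a3 and Dusp1 end 153 and 48 bases before it, because bases nearer the start that annotated transcripts of the gene use as exon were left out.
Nr4a1: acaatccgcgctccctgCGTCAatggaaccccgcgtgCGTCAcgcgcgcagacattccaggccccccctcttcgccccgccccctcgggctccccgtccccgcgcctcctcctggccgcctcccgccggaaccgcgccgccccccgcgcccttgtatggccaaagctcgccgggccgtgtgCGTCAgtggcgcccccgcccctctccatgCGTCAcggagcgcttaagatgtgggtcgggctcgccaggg
Nr4a2: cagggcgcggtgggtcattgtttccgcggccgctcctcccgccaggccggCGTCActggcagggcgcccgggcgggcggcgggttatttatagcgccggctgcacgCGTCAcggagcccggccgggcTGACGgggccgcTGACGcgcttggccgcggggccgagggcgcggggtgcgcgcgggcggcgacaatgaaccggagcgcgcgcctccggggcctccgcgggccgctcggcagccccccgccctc
Nr4a3: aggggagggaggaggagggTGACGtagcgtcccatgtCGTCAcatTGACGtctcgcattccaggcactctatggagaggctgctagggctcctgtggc
Fos: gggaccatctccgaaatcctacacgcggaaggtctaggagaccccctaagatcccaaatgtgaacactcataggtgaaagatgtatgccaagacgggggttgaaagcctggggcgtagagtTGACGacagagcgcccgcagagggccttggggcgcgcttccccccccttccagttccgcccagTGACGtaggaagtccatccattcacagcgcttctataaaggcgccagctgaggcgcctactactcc
Dusp1: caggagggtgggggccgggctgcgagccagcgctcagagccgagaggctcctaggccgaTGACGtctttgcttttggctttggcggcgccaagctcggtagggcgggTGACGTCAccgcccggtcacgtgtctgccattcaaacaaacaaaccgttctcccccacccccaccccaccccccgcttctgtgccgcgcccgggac
In Nr4a1 the cores lay 233, 213, 69 and 40 bases before the start, counted to the first base of each, and in Nr4a2 they lay 200, 144, 123 and 111 bases before it. The AP-1 site TGANTCA, the NR4A monomer site AAAGGTCA (NBRE) and the CArG box bound by serum response factor were each found in 0 of 7, against 6.75%, 1.34% and 1.47% of all promoters. These are matches of letters in a short window and say nothing of binding.

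In DFAT cells SIK1, NR4A1 and NR4A3 were the members with the largest share of their spread between treatment groups. NR4A1 (deposited interval on pig chromosome 5, 17385390 to 17408511, plus strand; build not given in the sources used here) encodes the founding receptor of the family. Vehicle replicates 1 to 3 held 444, 321 and 423 normalized counts of NR4A1, dicoumarol 189, 156 and 164, magnolol 232, 201 and 236, the combination 223, 238 and 191 and rosiglitazone 582, 489 and 603. Every library with dicoumarol, magnolol or both lay below every vehicle library, and every rosiglitazone library lay above them all. As means with SD (n = 3) these were 396 ± 65.5 in vehicle, 169.7 ± 17.3, 223 ± 19 and 217 ± 24.1 with the 3 compound treatments, and 558 ± 60.7 with rosiglitazone. On the log2(value + 1) scale the differences from vehicle were −1.21 with dicoumarol, −0.82 with magnolol, −0.85 with both and 0.50 with rosiglitazone (SE 0.13 each). The combination was thus no lower than dicoumarol alone, and it lay 1.17 (SE 0.19) above the sum of the separate differences.

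NR4A2 and NR4A3, the other two receptors, had their own orders of groups. For NR4A2 (pig chromosome 15, 63487731 to 63495299, minus strand) the vehicle libraries held 1621, 1257 and 1979.5 normalized counts, dicoumarol 1099, 938 and 1114, magnolol 1298, 1189 and 1503, the combination 889, 979 and 1215 and rosiglitazone 1489, 1423 and 1877. Vehicle and rosiglitazone overlapped, and the dicoumarol and combination libraries lay below all vehicle libraries, with log2 differences of −0.60 and −0.64 (SE 0.15). NR4A3 (pig chromosome 1, 241570010 to 241611727, plus strand) stood at 188, 139 and 223 in vehicle, 93.6, 94.2 and 143 with dicoumarol, 87.3, 119 and 150.5 with magnolol, 111, 131 and 164 with both and 406, 424 and 392 with rosiglitazone. All 3 rosiglitazone libraries were above every other library, 1.17 (SE 0.21) over vehicle on the log2 scale, whereas NR4A2 differed from vehicle by −0.01 (SE 0.15) there. The dicoumarol, magnolol and combination libraries of NR4A3 overlapped one another, at log2 differences of −0.73, −0.63 and −0.43 (SE 0.21), and 1 dicoumarol, 1 magnolol and 1 combination library reached into the vehicle range.

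SIK1 (pig chromosome 13, 206454718 to 206465807, minus strand) encodes a salt-inducible kinase that is itself a CREB target and that restrains CREB by keeping its CRTC coactivators out of the nucleus. Its vehicle libraries held 3460.4, 3712 and 3033 normalized counts, dicoumarol 1585, 1707 and 1442, magnolol 2395, 2829.5 and 2514, the combination 1791, 1919.7 and 1421 and rosiglitazone 5522, 5551 and 4589. No group overlapped another except dicoumarol and the combination, so the order was rosiglitazone, vehicle, magnolol, then both of those. The log2 differences from vehicle were −1.11, −0.40, −0.998 and 0.62 (SE 0.11) with dicoumarol, magnolol, both and rosiglitazone. The combination lay 0.51 (SE 0.16) above the sum of the separate SIK1 differences.

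**Figure D1:**
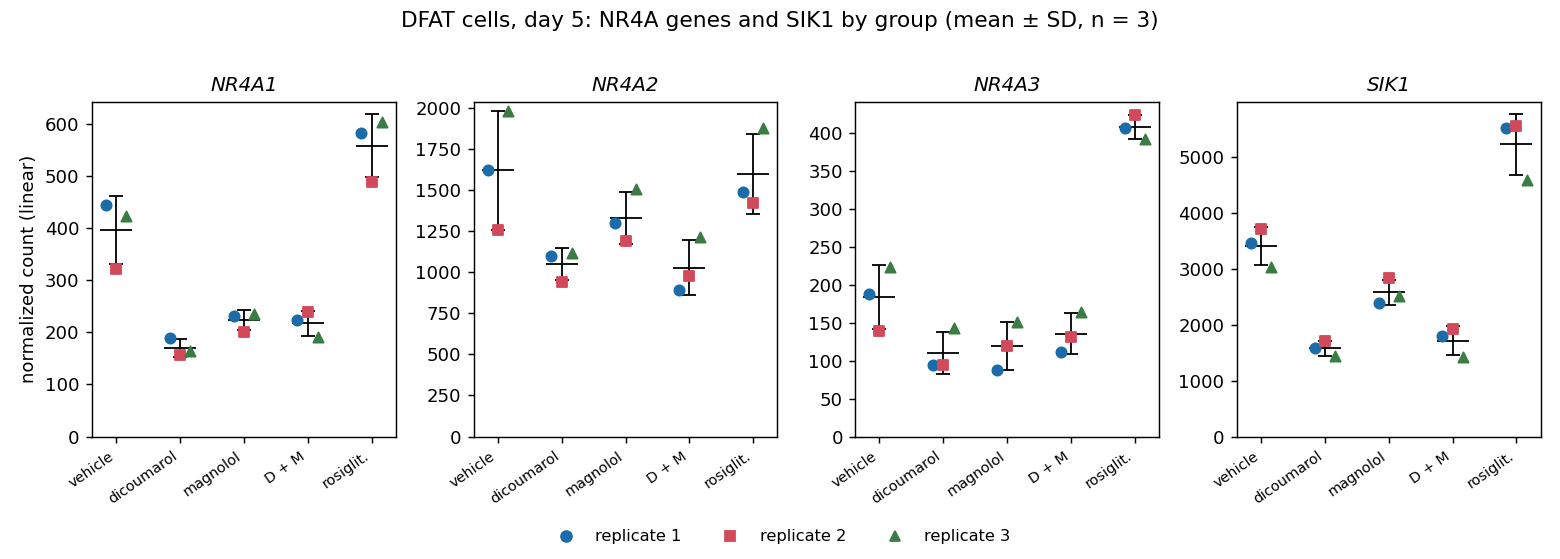
Normalized counts (linear axis from 0) of NR4A1, NR4A2, NR4A3 and SIK1 in the 15 DFAT libraries by group; points are libraries coloured by replicate number, horizontal bars the mean and whiskers the SD of 3 libraries, and D + M the combination. Rosiglitazone libraries lie above all others for NR4A1, NR4A3 and SIK1, and dicoumarol libraries lie below every vehicle library for NR4A1, NR4A2 and SIK1.

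The AP-1 genes FOS, FOSB and JUNB, whose proteins pair to form the AP-1 transcription factor, and EGR1, a zinc finger factor induced by growth signals, had fold changes below 0 with dicoumarol, magnolol and both. FOS, JUNB and EGR1 overlapped vehicle with every treatment, while FOSB libraries lay below all vehicle libraries with dicoumarol and with both. FOS held 617, 792 and 239 normalized counts in vehicle, 449, 476 and 153 with dicoumarol, 537, 604 and 194 with magnolol, 368, 519 and 132 with both and 573, 573 and 285 with rosiglitazone. EGR1 held 21595, 18099 and 8628 in vehicle, 17094, 12890.1 and 6190.0, 17707, 15348 and 8085 and 14141, 12058 and 5984 with the compound treatments in the same order, and 23227, 15899 and 10702 with rosiglitazone. The third replicate was the lowest of its group in 5 of 5 groups for both genes, and all groups overlapped. JUNB held 3458, 3492 and 2427 in vehicle, 2954, 2630.1 and 2080.4, 3117, 3234 and 2507 and 2610.0, 2731 and 2177 with the compound treatments, and 3561, 2960.0 and 2573 with rosiglitazone. FOSB was at 256, 223 and 293 in vehicle, 212, 128 and 210.4 with dicoumarol, 282, 176 and 255 with magnolol, 150.1, 98.9 and 148 with both and 343, 185 and 312 with rosiglitazone. FOSB differed from vehicle by −0.52 with dicoumarol and −0.97 with both on the log2 scale (SE 0.25). For FOS, JUNB and EGR1 the difference with both was −0.73 (SE 0.56), −0.31 (SE 0.16) and −0.57 (SE 0.42). These SEs include the spread between replicate numbers. Between same-numbered libraries the differences with both were −0.75, −0.61 and −0.85 for FOS and −0.61, −0.59 and −0.53 for EGR1. Those of JUNB were −0.41, −0.35 and −0.16. With dicoumarol all 3 same-numbered differences were below 0 for each of these genes. With magnolol 1 difference of JUNB lay above 0 and all 3 of FOS and EGR1 below. Over all genes the numbers do not pair the libraries of these comparisons.

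DUSP1, a phosphatase that switches off MAP kinases and is induced by both cyclic AMP and glucocorticoids, had the smallest differences with dicoumarol, magnolol and both (−0.10, −0.02 and −0.02, SE 0.08). It held 11022, 13152 and 11059 normalized counts in vehicle, 10691, 11479 and 10615 with dicoumarol, 11742, 12190.0 and 10786 with magnolol, 10890.4, 12352 and 11440.5 with both and 13168, 15129 and 14434 with rosiglitazone. The rosiglitazone libraries lay above all others by a narrow margin, 0.28 (SE 0.08) over vehicle on the log2 scale, and the other 4 groups overlapped.

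All 9 pig members had fold changes below 0 with each of dicoumarol, magnolol and the combination. At a limma adjusted p under 0.05, 3 members were lower with dicoumarol (NR4A1, NR4A2 and SIK1), where 1.03% of all tested genes were called lower. With magnolol 1 was lower (NR4A1; background 1.27%) and with the combination 4 were (NR4A1, NR4A2, FOSB and SIK1; background 4.06%). With rosiglitazone 4 were higher (NR4A1, NR4A3, SIK1 and DUSP1; background 5.8%), and for additivity 1 was called, in NR4A1 (background 0.081%). Since values of these comparisons bore on the choice of the genes, nothing is read from the counts. Many of them rest on single libraries. NR4A1 passed for additivity only with each of vehicle replicates 1 and 3, dicoumarol replicates 2 and 3, magnolol replicate 2 and combination replicates 1 and 2 kept in. NR4A2 with dicoumarol was lost without vehicle replicate 1 or 3 or any dicoumarol library, and with the combination without vehicle replicate 3 or combination replicate 1. FOSB with the combination was lost without vehicle replicate 1 or 3 or combination replicate 2. With rosiglitazone NR4A1 was lost without vehicle replicate 2 or rosiglitazone replicate 1 or 3, and DUSP1 without vehicle replicate 1 or 3 or rosiglitazone replicate 2 or 3, so 2 to 3 members passed whichever library was left out. SIK1 passed with magnolol without vehicle replicate 3 or magnolol replicate 2. The calls of NR4A1 with dicoumarol, magnolol and both, of SIK1 with dicoumarol, both and rosiglitazone and of NR4A3 with rosiglitazone passed whichever single library was left out. Such refits use the same values that may have borne on the choice, so they are no independent check of these differences. The 4 comparisons share the vehicle libraries.

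**Figure D2:**
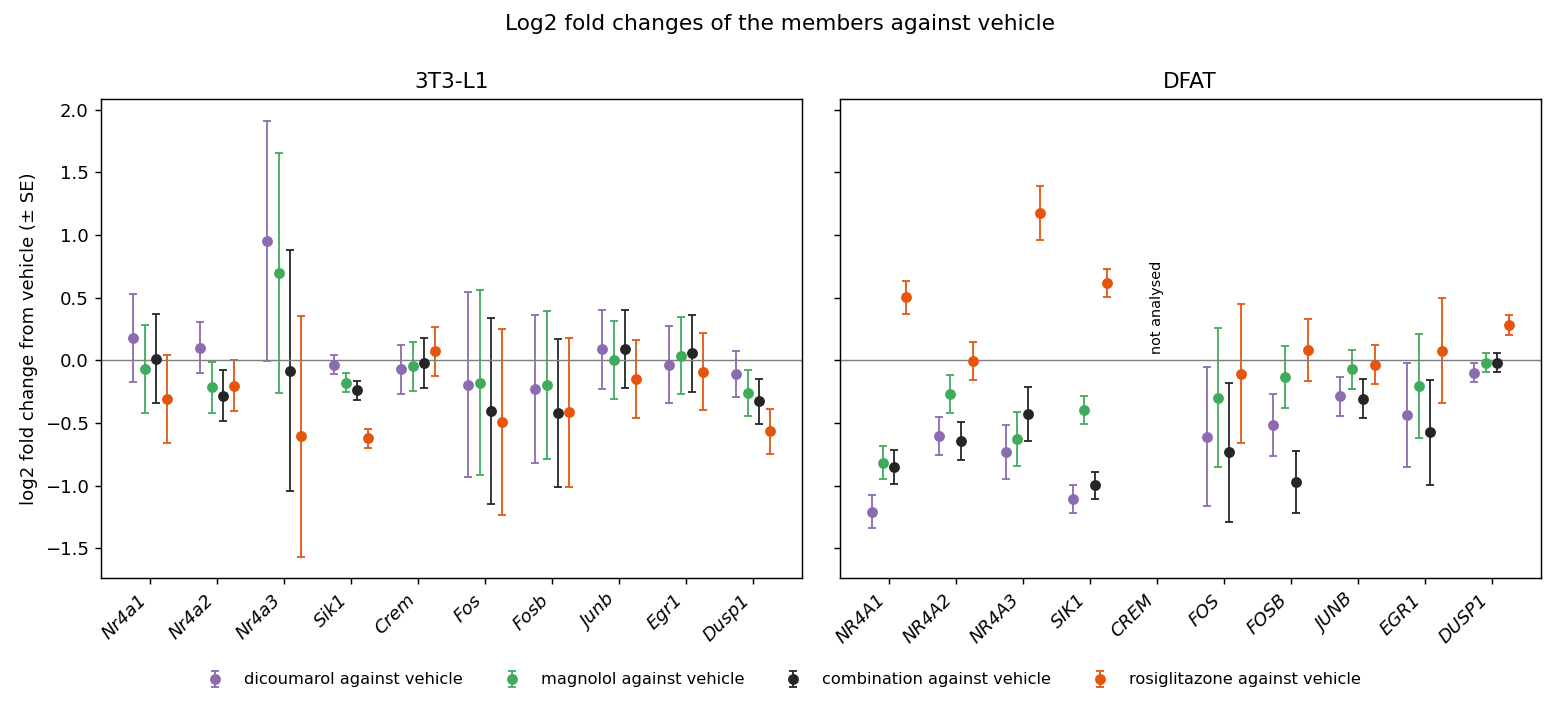
Log2 fold change from vehicle (points) with its standard error (whiskers) for each member with dicoumarol, magnolol, their combination and rosiglitazone, 3T3-L1 on the left and DFAT on the right. In DFAT the rosiglitazone points of NR4A1, NR4A3 and SIK1 lie on the opposite side of 0 from the other treatments; in 3T3-L1 whiskers are wide except for Sik1, whose rosiglitazone value is −0.62.

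Rosiglitazone and the combination had the highest adipocyte marker sums in DFAT, yet all 9 members were higher with rosiglitazone than with the combination. Relative to the combination, NR4A1 was 1.36 (SE 0.13) higher on the log2 scale with rosiglitazone, given as a description only. Of the other 8 members 5 were called higher by limma: SIK1 by 1.62 (SE 0.11, adjusted p 6.71e-08), NR4A3 by 1.60 (SE 0.21, adjusted p 4.94e-05), FOSB by 1.05 (SE 0.25, adjusted p 0.00676), NR4A2 by 0.64 (SE 0.15, adjusted p 0.00706) and DUSP1 by 0.30 (SE 0.08, adjusted p 0.0124). All 3 rosiglitazone libraries were above all 3 combination libraries for these 5 genes and for NR4A1. The share of all genes that separated in this way is not given here, so nothing is read from the separation. In this comparison 8.24% of all tested genes were called higher, against 6 of 9 members with NR4A1 counted. Nothing is read from this count or from the one with the block below. Low combination values may have borne on the choice of the genes. FOS (0.63, SE 0.56), EGR1 (0.65, SE 0.42) and JUNB (0.27, SE 0.16) did not pass, at limma adjusted p of 0.499, 0.323 and 0.27. The replicate numbers pair the libraries of these 2 groups, and with the number as a block all 9 members were called, with a highest limma adjusted p of 0.0066, where 12.4% of all genes were called higher. Without combination replicate 1 the DUSP1 call was lost (limma adjusted p 0.0629, log2 difference 0.26). Which libraries weighed in the choice of the genes is not recorded, and the low level of the combination libraries may have done so; these p-values are not independent of it.

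With dicoumarol added to magnolol, SIK1 differed from magnolol alone by −0.60 on the log2 scale (SE 0.11, limma adjusted p 0.013), with no overlap between the groups; 0.236% of all genes were called lower. The call was lost without magnolol replicate 2 (0.0819) or combination replicate 3 (0.0681), as limma adjusted p-values. FOSB differed by −0.84 (SE 0.25, limma adjusted p 0.225) with no overlap either. With the replicate number as a block, 4 members were called lower: SIK1, FOSB (limma adjusted p 0.000717), EGR1 (0.0201) and NR4A2 (0.0248), against 0.938% of all genes. Magnolol added to dicoumarol gave 0 called members by limma, against 2.35% of all genes in either direction. NR4A1 was higher by 0.35 (SE 0.13) there. This is given as a description only, since the difference is part of its departure from additivity. NR4A1 overlapped between magnolol and the combination, at a log2 difference of −0.04 (SE 0.13). Values of the combination, magnolol and dicoumarol libraries may have borne on the choice of the genes. The p-values given for these comparisons are not independent of it, and nothing is read from the counts.

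In 3T3-L1 cells the pattern was different: Sik1 was the member that followed the treatment, and it was lowest with rosiglitazone. Sik1 (deposited interval on mouse chromosome 17, 32063224 to 32074778, minus strand; these intervals do not match GRCm38, the build in the submitters' notes) held 5529.9, 5516 and 5476 normalized counts in vehicle, 5221, 5652 and 5258 with dicoumarol, 5106, 4965 and 4525 with magnolol, 4689.6, 4983 and 4350.2 with both and 3682, 3554 and 3501 with rosiglitazone. The rosiglitazone libraries lay below all others, the magnolol and combination libraries lay below all vehicle libraries and overlapped each other, and dicoumarol overlapped vehicle. Rosiglitazone lowered Sik1 by 0.62 on the log2 scale (SE 0.08, limma adjusted p 1.4e-05) against vehicle and by 0.38 (SE 0.08, limma adjusted p 0.0044) against the combination. With the combination Sik1 differed from vehicle by −0.24 (SE 0.08, limma adjusted p 0.0889), and the call was made with the replicate number as a block (limma adjusted p 0.018), where 5.48% of all genes were called lower. With magnolol alone it differed by −0.18 (SE 0.08, limma adjusted p 0.409) and with dicoumarol by −0.04 (SE 0.08).

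Dusp1 was the other mouse member called. Its libraries held 2129.8, 1589 and 1790.1 normalized counts in vehicle, 1950.4, 1678 and 1479 with dicoumarol, 1649.8, 1603 and 1335 with magnolol, 1741, 1514 and 1163 with both and 1632, 968 and 1178 with rosiglitazone. Rosiglitazone replicate 1 lay inside the vehicle range, so the groups overlapped. The difference of −0.57 (SE 0.18) passed the test (limma adjusted p 0.0208), but not without vehicle replicate 1 (0.0882), rosiglitazone replicate 2 (0.0973) or rosiglitazone replicate 3 (0.0576). In the deposited table the interval of mouse Dusp1 (chromosome 17, 26724564 to 26781102, minus strand) overlaps Ergic1 on the other strand, and Junb overlaps Prdx2 in the same way; the libraries mark strand, but whether the counting used it is not given in the sources used here. With rosiglitazone 2 of 10 mouse members were called lower and 0 higher, where 19.9% and 20.3% of all genes were, so the share called lower was close to that of all genes. Against the combination 1 of 10 was called lower, where 8.78% of all genes were.

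**Figure D3:**
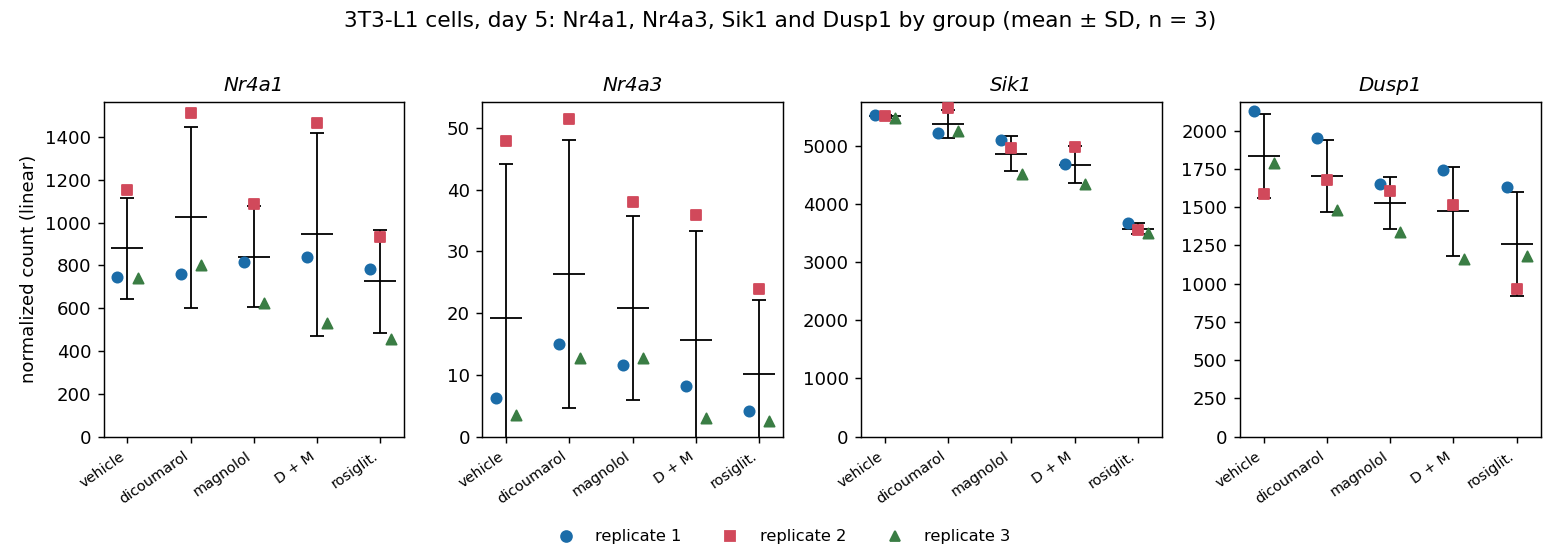
Normalized counts (linear axis from 0) of Nr4a1, Nr4a3, Sik1 and Dusp1 in the 15 3T3-L1 libraries by group; points are libraries coloured by replicate number, horizontal bars the mean and whiskers the SD of 3 libraries, and D + M the combination. Sik1 falls to 3501 to 3682 with rosiglitazone with little spread, while replicate 2 is the highest library of every group for Nr4a1 and Nr4a3.

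The mouse NR4A genes were not called in any comparison. Nr4a1 held 746, 1153 and 739 normalized counts in vehicle, 761, 1513 and 802 with dicoumarol, 815, 1088 and 622 with magnolol, 839.6, 1466 and 530.4 with both and 784, 933 and 458 with rosiglitazone. All groups overlapped, and replicate 2 was the highest in 5 of 5. The log2 differences from vehicle were 0.18, −0.07, 0.01 and −0.31 (SE 0.35). Nr4a2 held 82, 90.7 and 69.7 in vehicle, 86.6, 91.4 and 80.9, 68.9, 90.7 and 52.8 and 74, 71.8 and 53.6 with the compound treatments, and 64, 79.4 and 66.7 with rosiglitazone. The combination libraries of Nr4a2 lay below all dicoumarol libraries (−0.38, SE 0.20, limma adjusted p 0.706). Nr4a3 had few counts and was highest in replicate 2 of every group: 6.24, 47.9 and 3.49 in vehicle, 15, 51.4 and 12.7, 11.6, 38 and 12.7 and 8.11, 35.9 and 2.98 with the compound treatments, and 4.19, 23.9 and 2.47 with rosiglitazone. Its SE of 0.96 is the largest of the members, and no fold change of Nr4a3 is read.

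Crem, which encodes both activators and, from an internal promoter, the cyclic AMP early repressor ICER, overlapped between all groups. It held 84.6, 99.3 and 81.4 normalized counts in vehicle, 93.4, 68.5 and 91.4 with dicoumarol, 94.9, 81.2 and 80.2 with magnolol, 84.1, 66.6 and 116 with both and 88.1, 89.2 and 101 with rosiglitazone, at differences from vehicle between −0.07 and 0.07 (SE 0.20). Gene-level counts do not separate ICER from the other products. The AP-1 genes and Egr1 varied widely between replicates of each group. Fos held 1072, 491 and 422 in vehicle, 1259.7, 447 and 263, 1059, 623 and 232 and 1009, 431 and 220.5 with the compound treatments, and 1383, 287 and 201 with rosiglitazone. Fosb held 318, 229 and 153, 439.9, 148 and 106, 320.1, 223 and 104, 317, 159.7 and 91.4, and 356, 165 and 79 in the same order of groups. Both genes were highest in replicate 1 and lowest in replicate 3 in 5 of 5 groups.

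Junb and Egr1 showed a weaker form of the same split. Junb held 3312, 2399 and 2676 normalized counts in vehicle, 3746, 3053 and 2222, 3676, 3159 and 1835 and 3658, 3382 and 2071 with the compound treatments, and 4237, 2052 and 1799 with rosiglitazone. Egr1 held 2744, 2295 and 1962, 2791, 2724 and 1507, 2901, 2840.4 and 1616, 2807, 2897 and 1700.3, and 3443, 1863 and 1596 in that order. No group of either gene stood apart from another. With dicoumarol and with magnolol 0 of 10 mouse members were called by limma (0% and 1.23% of all genes), with 0 and 1 (Sik1) at an unadjusted p under 0.05, and with the combination 0 of 10 (5.22% of all genes), with 1 (Sik1) at an unadjusted p under 0.05. No mouse member was called for the combination against either compound or for additivity (0.0254%, 0% and 0% of all genes), with 1 (Sik1), 0 and 0 at an unadjusted p under 0.05.

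**Figure D4:**
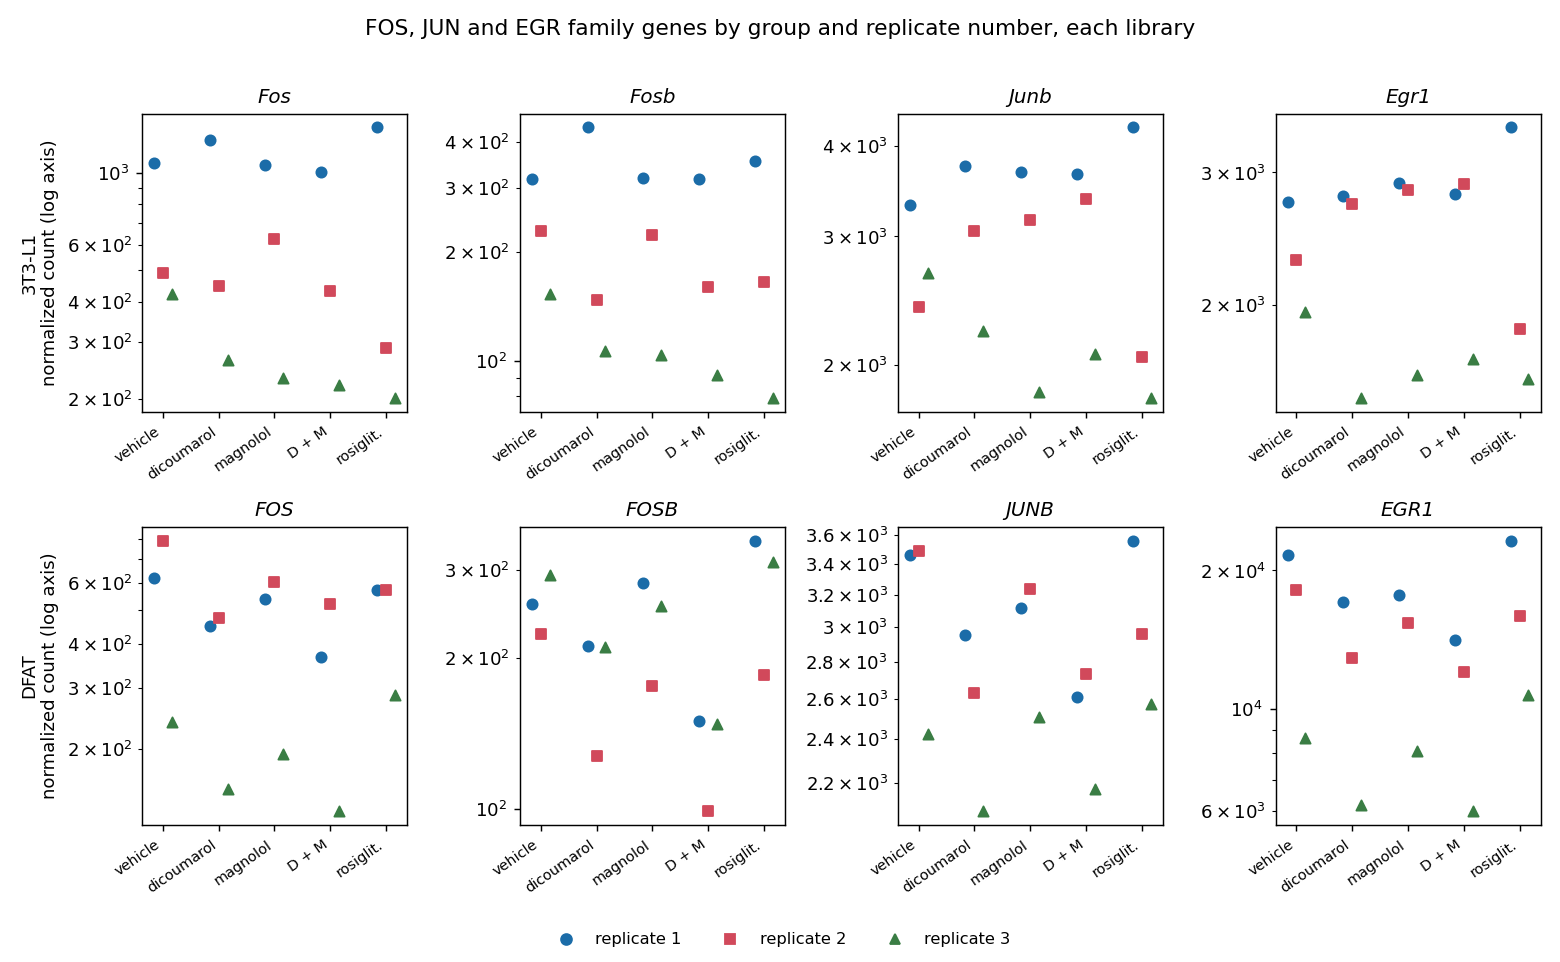
Normalized counts (log axis) of Fos, Fosb, Junb and Egr1 in the 15 3T3-L1 libraries (top row) and of their pig counterparts in the 15 DFAT libraries (bottom row), by group and replicate number; each point is a library. Replicate 1 is the highest and replicate 3 the lowest Fos library in 5 of 5 groups of 3T3-L1, and replicate 3 is the lowest FOS, JUNB and EGR1 library in 5 of 5 groups of DFAT.

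The spread over 15 libraries was divided into a share between groups and a share between replicate numbers, which the labels give to every group without saying what they mark. In 3T3-L1 the number took 88.7% of the sum of squares of Fos, 88.3% of Fosb, 79.6% of Egr1, 75% of Nr4a3, 74.9% of Nr4a1 and 72.3% of Junb, while the group took 1.85% to 18.9%. The median over all tested genes was 16.4% for the number and 46.2% for the group, and 10.0% of all genes had over 50% between numbers. Sik1 was the opposite case, with 94% between groups and 3.04% between numbers. In DFAT the split ran through the list: 95.1% of the spread of NR4A1, 96% of SIK1 and 88.5% of NR4A3 lay between groups, against 13.4% of FOS, 17.5% of EGR1 and 30.9% of JUNB, which had 83.4%, 80.3% and 61% between numbers. The division of spread thus differed among the genes named together as cyclic AMP-responsive. It does not give direction: in DFAT all 9 members had fold changes below 0 with dicoumarol, magnolol and both. With rosiglitazone 6 were above 0 and 3 below. Heat shock and handling genes, a list of stress-induced chaperones, also split by number in 3T3-L1 (median 69.4% over 6 genes, 5 of them over 50%) but not in DFAT (median 4.72% over 4 genes). Other immediate early genes had a median of 34.8% over 20 genes in 3T3-L1 and 29.7% over 20 in DFAT. Depth by number was 26.3 to 30.04 M reads in replicates 1 of 3T3-L1, 24.9 to 30.7 in replicates 2 and 22.8 to 27.6 in replicates 3, ranges that overlap. The part of handling or depth in the split was not tested.

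**Figure D5:**
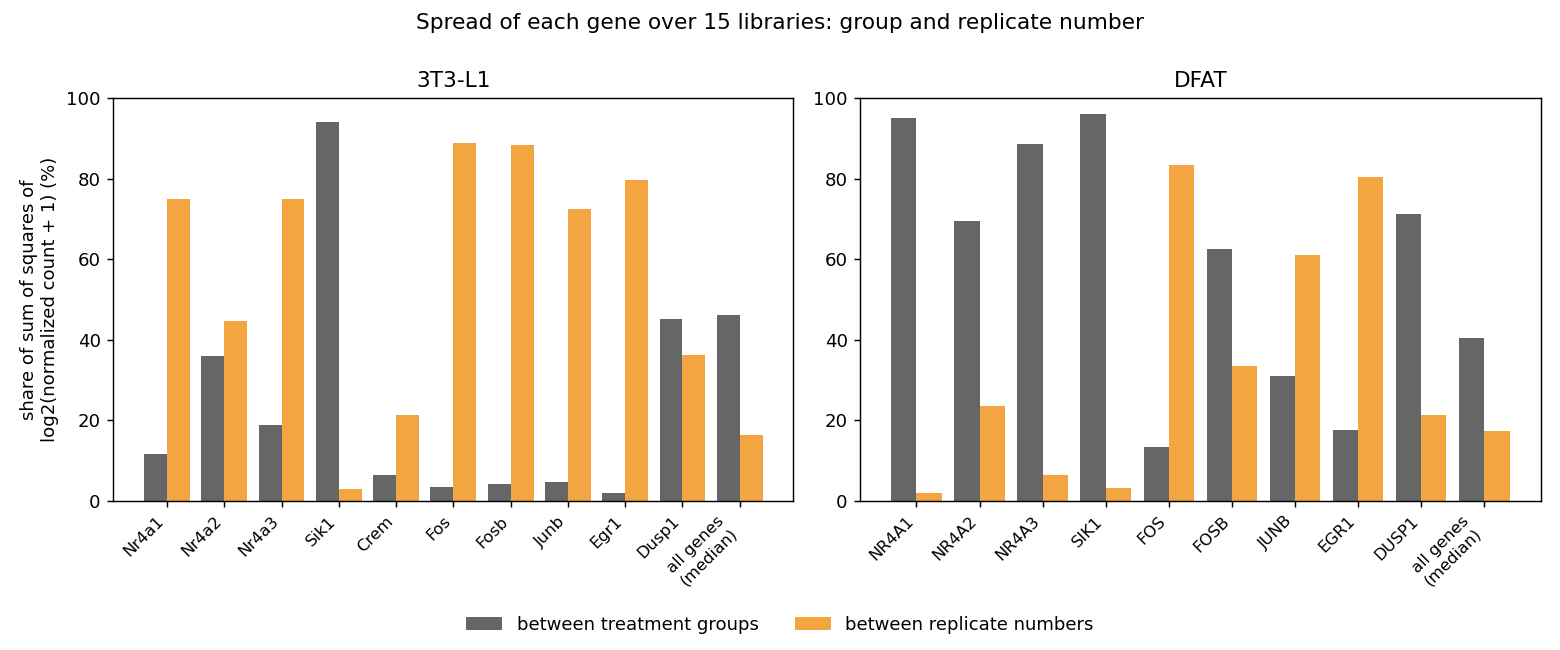
Share (%) of the sum of squares of log2(normalized count + 1) over the 15 libraries of a system that lay between treatment groups (grey) and between replicate numbers (orange), for each member and as the median of all tested genes. Sik1 in 3T3-L1 and NR4A1, NR4A3 and SIK1 in DFAT are mostly between groups, and Fos, Fosb, Junb and Egr1 in 3T3-L1 are mostly between numbers.

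The remaining genes of the pathway were followed in lists by role, and each count is set against the share of all genes called the same way. With rosiglitazone in 3T3-L1 that share was 20.3% higher and 19.9% lower. In DFAT it was 1.03% lower with dicoumarol, 2.96% higher and 1.27% lower with magnolol, 6.11% higher and 4.06% lower with both, 5.8% higher and 5.02% lower with rosiglitazone, and 8.24% higher and 8.79% lower with rosiglitazone against the combination. Among 14 tested DFAT phosphodiesterases, the enzymes that degrade cyclic nucleotides, 3 were called lower with each of dicoumarol, magnolol and the combination, and the lowest and highest of the calls with dicoumarol were PDE7B (−1.35, SE 0.10) and PDE4D (−1.27, SE 0.08). The median of the 14 with dicoumarol was −0.08 beside 0.00 for all genes. The adipocyte enzyme PDE3B, which carries the antilipolytic action of insulin, rose by 1.04 (SE 0.15, limma adjusted p 0.000133) with the combination. Rosiglitazone against the combination gave 5 higher and 1 lower of 14, with PDE4B the highest at 1.13 (SE 0.23, limma adjusted p 0.00268) and PDE1A the lowest at −0.35 (SE 0.08, limma adjusted p 0.00532). In 3T3-L1 0 of 11 were called with either compound or both, and 2 were higher and 2 lower with rosiglitazone, from Pde10a at −1.49 (SE 0.27) to Pde1b at 1.70 (SE 0.46), with limma adjusted p of 0.000449 and 0.00785; 2 of 11 each way is close to the share of all genes. With the replicate number as a block 2 were higher and 4 lower, where 24.4% and 25.4% of all genes were.

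Upstream, 1 regulatory subunit of protein kinase A was lower with dicoumarol, magnolol and both in DFAT, and with rosiglitazone 6 of 8 kinase genes were called in 3T3-L1. In DFAT the adenosine receptor ADORA2B was lower with dicoumarol (−0.49, SE 0.11, limma adjusted p 0.0204), the 1 call of 10 tested genes, and 2 of 10 were higher with magnolol, led by the adenylyl cyclase ADCY7 (0.46, SE 0.05, limma adjusted p 3.28e-05). ADCY7 was lower with rosiglitazone (−0.44, SE 0.05, limma adjusted p 1.98e-05). Among 9 tested DFAT genes of protein kinase A and its inhibitors, PRKAR1A, a regulatory subunit that holds the kinase inactive, was lower with dicoumarol (−0.37), magnolol (−0.42) and both (−0.47, SE 0.06 each, highest limma adjusted p 0.00331). PRKAR2B, the regulatory subunit typical of fat cells, was lower with dicoumarol (−0.20, SE 0.05, limma adjusted p 0.0394) and higher with rosiglitazone (0.80, SE 0.05, limma adjusted p 3.74e-09). In 3T3-L1 0 of 8 tested receptors and cyclases and 0 of 8 kinase genes were called with either compound or both; with rosiglitazone 1 and 4 were higher and 1 and 2 lower, among them Adcy5 (2.08, SE 0.47, limma adjusted p 0.0023) and Prkacb (−0.42, SE 0.10, limma adjusted p 0.00338). With the replicate block the receptors and cyclases gave 2 higher and 4 lower of 8 with rosiglitazone, 1 higher with magnolol and 1 higher with both. The kinase genes gave 2 higher with both. With this block 3.52% of all genes were called higher with magnolol and 8.03% with both. Of 11 tested genes for CREB relatives, coactivators and their kinases, 6 were lower and 2 higher with rosiglitazone in 3T3-L1, from Creb5 (−1.02, SE 0.34, limma adjusted p 0.0242) to Sik2 (0.34, SE 0.11, limma adjusted p 0.0226); the share called higher was close to that of all genes. In DFAT 2 of 11 were higher with rosiglitazone, SIK2 (0.48, SE 0.05, limma adjusted p 4.54e-06) the most.

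Downstream, other CREB targets and other immediate early genes differed in direction between the systems with rosiglitazone, a difference that was not tested. In DFAT 7 of 16 other CREB targets were called higher and 1 lower (median 0.38, beside −0.01 for all genes), and 6 of 20 other immediate early genes were called higher and 0 lower (median 0.29). PCK1, the gluconeogenic enzyme used by fat cells for glycerol synthesis and also counted among the adipocyte markers, was the highest at 7.33 (SE 0.49, limma adjusted p 1.05e-08) and CEBPD, an early adipogenic factor, the lowest at −0.23 (SE 0.06, limma adjusted p 0.0228). Among the immediate early genes the calls ran from KLF4 (0.25, SE 0.08, limma adjusted p 0.0483) to CCN2 (0.74, SE 0.16, limma adjusted p 0.00434). In 3T3-L1 2 of 15 CREB targets were higher and 6 lower (median −0.32, beside 0.00 for all genes), from Thbs1 (−1.58, SE 0.51, limma adjusted p 0.0221) to Pck1 (5.58, SE 0.62, limma adjusted p 5.54e-06), and fewer were called higher than the 20.3% of all genes. Of 20 immediate early genes 1 was higher, Myc (1.04, SE 0.13, limma adjusted p 1.6e-05), and 8 were lower, Klf4 the most (−1.67, SE 0.16, limma adjusted p 1.55e-06). With the combination 3 of 20 DFAT immediate early genes were lower and 0 higher, from IER2 (−0.64, SE 0.16, limma adjusted p 0.0168) to MYC (−0.37, SE 0.11, limma adjusted p 0.0378). Glucocorticoid targets, which answer the dexamethasone of the mix, gave 2 of 7 lower with dicoumarol and with the combination in DFAT, both times the feedback inhibitor ERRFI1 (−0.78 and −0.89, SE 0.10) and the kinase SGK1 (−0.59 and −0.82, SE 0.10), with a highest limma adjusted p of 0.0029. SGK1 was also lower with magnolol (−0.49, SE 0.10, limma adjusted p 0.00587). With rosiglitazone SGK1 (−0.54, SE 0.10, limma adjusted p 0.00123) and KLF9 (−0.22, SE 0.06, limma adjusted p 0.0317) were lower. In 3T3-L1 the calls with rosiglitazone ran from Errfi1 (−0.95, SE 0.17) to Zbtb16 (0.50, SE 0.13), with limma adjusted p of 0.000349 and 0.00517. MAP kinase feedback genes gave 2 of 10 higher with rosiglitazone in DFAT, DUSP5 the most (0.84, SE 0.11, limma adjusted p 2.91e-05), and 3 of 9 higher and 2 lower in 3T3-L1. Heat shock and handling genes gave 1 higher (HSPB1) and 2 lower of 4 with rosiglitazone in DFAT. In 3T3-L1 rosiglitazone gave 0 of 6, and 1 higher with the replicate block, where 24.4% of all genes were called higher.

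The genes whose group profile was most like the NR4A mean were found by the root mean square (RMS) difference of 5 group means on the log2 scale, each profile centred on its own mean. In DFAT the NR4A mean ran from −0.55 with dicoumarol, −0.27 with magnolol and −0.34 with both to 0.30 in vehicle and 0.86 with rosiglitazone. The nearest of 11345 genes were CD24 (a cell surface glycoprotein, RMS 0.11), ABL2 (a tyrosine kinase, 0.13), DAPK1 (a death-associated kinase, 0.13), GPRC5A (an orphan receptor, 0.14) and EREG (epiregulin, a ligand of the EGF receptor, 0.17). SIK1 lay at 0.20 and JUNB, the farthest member, at 0.42. Of the receptors that make up the mean, NR4A1 lay at 0.13, NR4A3 at 0.24 and NR4A2 at 0.31. NR4A2 and NR4A3 were thus farther from the mean than the 5 named genes. In 3T3-L1 the nearest of 11610 were Rn18s-rs5, Serpina3c, Cers1, Arhgap44 and Gm6475, at RMS 0.086 to 0.11. The 3T3-L1 mean profile ran from −0.38 with rosiglitazone to 0.40 with dicoumarol and rests on fold changes none of which passed, so these neighbours follow a profile within its own error. Likeness over 5 group means is a description.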

How the data were processed

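RNA was measured in 30 libraries, 15 per cell system. Each species has 1 table of size-factor normalized counts (signal values), which the authors deposited after DESeq2 scaling, as the labels name the files. The submitters' processing notes list bcl2fastq 2.19.1.403, STAR, DESeq2 and the build GRCm38, which the notes give for the pig libraries too; the deposited mouse intervals do not match GRCm38. Neither counter nor annotation is named there. Interval ends are the listed stop less 1. Within a tolerance of 0.02, 81.6% to 82.7% of low values in 3T3-L1 and 89.8% to 91.0% in DFAT were whole reads, which is too few to recover reads, so no count test was run.

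Genes with a mean of at least 10 entered 1 limma model per table (limma 3.58.1, R 4.3.3) of log2(value + 1) over all 5 groups, with a variance trend; tests were two-sided, and p-values were adjusted over all genes by Benjamini-Hochberg; a gene was called at an adjusted p under 0.05. Fold changes on this scale understate those of low genes. Additivity was tested as the dicoumarol by magnolol interaction. The fit was also run on simulated data, for the combination against vehicle only and with no effect of replicate number put in. No statement here rests on that run. Tables, promoter searches and plots were made in Python 3.11.15 (pandas 2.3.3, numpy 2.4.6, matplotlib 3.10.9). Promoters came from RefSeq, GRCm38.p6, with transcripts of GENCODE for that build.

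The members and gene lists were chosen with earlier results of these data known. Besides the members, named genes are the lowest and highest called of a list in the comparison described and the 5 genes with a mean of at least 100 nearest to the mean NR4A profile; marker and overlapping genes are named where a value or interval turns on them. Alternatives were other pseudocounts and filters, no trend, only the compared groups, quantile normalization, the replicate number as a block, and leaving out each library. In 3T3-L1 all 30 pairs of same-numbered libraries had deviations from group means that correlated above 0.1 (0.106 to 0.462), so the numbers pair them. In DFAT 16 of 30 did (−0.306 to 0.345), and among the comparisons the numbers pair only the combination with magnolol (0.118 to 0.345) and with rosiglitazone (0.105 to 0.288). Values of different genes are not compared as levels, since no transcript length was used.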

Additional observations from a re-analysis of the deposited data

Results flagged for a closer look

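Sik1 moved in opposite directions with rosiglitazone in the 2 systems. Its log2 difference from vehicle was −0.62 in 3T3-L1, where all 3 rosiglitazone libraries lay below all vehicle libraries, and 0.62 in DFAT, where all 3 lay above. The difference between the systems was not tested, and the systems differ in species, cell source and induction mix. Adipocyte marker sums were highest with rosiglitazone in both systems.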

How the results depend on the processing

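No member changed direction in any call: of 1208 values of single members under the settings other than leaving out a library, 1172 kept their side of the threshold, 15 lost a call, 21 gained one and 0 reversed, and of 1026 values with 1 library left out 994 kept it, 30 lost a call, 2 gained one and 0 reversed. Only a called value can lose a call, and most of these values were of members not called in the comparison. The totals therefore do not give the share of calls that held. Most gains came with the replicate block, which moved the number of called members to 1 (from 0) for the combination against vehicle in 3T3-L1. In DFAT the block gave 8 (from 3) with dicoumarol, 3 (from 1) with magnolol and 7 (from 4) with the combination, all lower, where 2.42%, 3.55% and 8.31% of all genes were. It gave 1 (from 0) for the combination against dicoumarol, 4 (from 1) against magnolol and 2 (from 1) for additivity, where 1.57% and 0.938% of all genes were lower and 0.121% higher; the block did not pair these DFAT libraries except for the combination against magnolol, and it changed no other count by over 1.5 times. Magnolol in DFAT gave 2 with a minimum mean of 50 and 2 with only the compared groups. Rosiglitazone in DFAT gave 2 (from 4) with no filter and 2 with only the compared groups. The combination against magnolol gave 0 with no filter, 0 without the trend and 0 with only the compared groups, and additivity gave 0 with no filter and 0 without the trend. With 1 library left out the counts ranged in 3T3-L1 from 1 to 2 for rosiglitazone, and in DFAT from 2 to 3 for dicoumarol, 1 to 2 for magnolol, 2 to 4 for the combination, 2 to 3 for rosiglitazone, 0 to 1 for the combination against magnolol, 5 to 6 for rosiglitazone against the combination and 0 to 1 for additivity. The causes were not tested. For the filter, trend, compared-groups and leave-one-out settings the share of all genes is not given, and nothing is read from the DFAT counts. Nr4a3 in 3T3-L1 had a mean of 18.4 normalized counts, and the part of counting error in its spread was not tested.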
